A study of Mus musculus with 18 samples.

Results

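The mitochondrial ribosomal protein genes were taken as the GENCODE M21 protein-coding genes whose symbol begins with Mrpl or Mrps followed by a digit. The rule found 78 members among the 54446 genes of the count table, 49 named Mrpl and 29 named Mrps. By name, with Mrps18a and Mrps30 moved for their place in the structure, 51 were set in the large subunit and 27 in the small subunit. Mrps36, set in the small subunit by its name, is known as a subunit of the oxoglutarate dehydrogenase complex. Of the 78 genes, 45 were classed as having a bacterial counterpart and 33 as mitochondrial only. The second class includes Mrps18a and Mrps18b, paralogs of Mrps18c, which was set in the first.

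The mitochondrial ribosome sits in the mitochondrial matrix and makes the few proteins that mitochondrial DNA encodes, all of them parts of the respiratory chain or ATP synthase. Its RNAs come from mitochondrial DNA, but each of its proteins is encoded in the nucleus, made by cytosolic ribosomes and imported. Transcripts of these genes therefore start in the nucleus, and the libraries described here sample that nuclear stage.

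Nuclear RNA of C57BL/6 mouse embryonic stem cells, grown with serum, LIF, CHIR99021 and PD0325901, was sequenced in 18 libraries, 2 in each of 9 groups. Cells labelled Ythdc1 control and Ythdc1 cKO were taken after 0, 3 or 6 h of actinomycin D at 5 µg/ml, a drug that blocks transcription. A Mettl3 control and knockout lines labelled KO1 and KO2 were taken at 0 h. YTHDC1 is the nuclear protein that reads N6-methyladenosine (m6A) in RNA, and METTL3 is the enzyme that writes it. The labels do not give the deleted exons, how the conditional deletion was induced, or whether each line is 1 clone. They also do not say whether the 2 libraries of a group are separate cultures, so each p-value reflects only how far these libraries vary, perhaps for technical reasons.

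The libraries held 4950973 to 30989044 gene reads and 3932 to 33396 reads of ERCC spike-in RNA. Counts of the targeted genes over the whole gene, which need not show a partial deletion, were lower than in control in some knockout groups only. Ythdc1 stood at 145.1 and 132.0 CPM in control and at 143.2 and 120.4 CPM in the libraries labelled cKO at 0 h (log2 fold change -0.07 ± 0.08 SE, adjusted p = 0.557, edgeR). After 3 and 6 h of actinomycin D it stood at 47.2 to 51.9 CPM in the 4 control libraries and at 14.5 to 19.2 CPM in the 4 libraries labelled cKO, without overlap. Mettl3 stood at 36.6 and 31.9 CPM in the Mettl3 control, 32.6 and 31.3 CPM in KO1 (-0.10 ± 0.08, adjusted p = 0.316, edgeR) and 22.7 and 22.1 CPM in KO2 (-0.61 ± 0.08, adjusted p = 7.45e-10, edgeR). Scaled to spike-in reads instead, Ythdc1 in libraries labelled cKO at 0 h was lower (-0.44 ± 0.08, adjusted p = 2.49e-05, edgeR). On the spike-in scale Mettl3 did not pass the test in KO2 (-0.05 ± 0.08, adjusted p = 0.637, edgeR) or KO1 (0.09 ± 0.08, adjusted p = 0.403, edgeR). All 8 embryonic stem cell markers were present in every group, with a summed level of 2455 to 3914 CPM. Summed fibroblast or feeder markers were at 23.5 to 68.2 CPM in the Ythdc1 experiment, 238.6 to 265.9 CPM in the Mettl3 control and KO1, and 578.6 to 586.2 CPM in KO2. In such bulk samples, fewer cells of a type and less RNA per cell cannot be told apart.

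Members were compact genes that often lay head to head with another gene. Their median exonic length was 2394 bp against 4412 bp in the 14070 other protein-coding genes tested in the Ythdc1 experiment, and their median number of exons was 5 against 9. A protein-coding gene on the opposite strand started within 1000 bp of 33 members (42.3%), against 15.0% of the other coding genes. The members were spread over 17 chromosomes, with 11 on chromosome 11, 8 on chromosome 17 and 7 on chromosome 6. Exons of 33 members overlapped exons of another annotated gene, on the opposite strand in 28 and on the same strand in 8. Since the strand setting of the counting is not given in the sources used here, the counts of those 33 are uncertain.

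Promoter sequences show the letters behind these compact, paired starts. RefSeq promoter entries (GRCm38.p6, 250 bases before to 50 after the start) matched 69 of the 78 members and 10946 other tested coding genes. On both strands, 3 short motifs known from genes for mitochondrial and ribosomal proteins were searched. The NRF1 motif (GCGC, any base, then TGCGC) was in 18.8% of member promoters and 10.7% of the others. The ETS motif CCGGAAG, bound by factors such as GABPA, was in 37.7% and 18.6%, and the YY1 motif AAGATGGCG in 11.6% and 3.25%. At least 1 of the 3 stood in 41 of 69 member promoters (59.4%), against 29.1% of the others, while CCAAT was in 39.1% and 43.2%. No motif contains another, and a match is a description of letters, not a binding site.

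The following 7 windows run 5′ to 3′ along the gene's strand, from 120 bases before to 30 after the RefSeq start, with ETS and YY1 matches on either strand in capitals. They belong to a choice of members with the highest level or among the greatest changes named below, and to the head-to-head pair Mrpl46 and Mrps11. Mrps24, a small-subunit protein, is shown from chr11:5707672-5707821 (minus strand), and Mrpl43, a large-subunit protein, from chr19:45006413-45006562 (minus strand). Mrpl36, a small protein of the large subunit, is from chr13:73330889-73331038 (plus strand), and Mrpl41, a large-subunit protein found in mitochondria only, from chr2:24975069-24975218 (minus strand). Mrps33, a small-subunit protein, is from chr6:39810907-39811056 (minus strand). Mrpl46 of the large subunit is from chr7:78783060-78783209 (minus strand) and Mrps11 of the small subunit from chr7:78783011-78783160 (plus strand).
Mrps24: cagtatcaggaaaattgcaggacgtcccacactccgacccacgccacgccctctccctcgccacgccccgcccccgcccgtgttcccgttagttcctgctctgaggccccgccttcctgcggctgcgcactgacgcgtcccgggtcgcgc
Mrpl43: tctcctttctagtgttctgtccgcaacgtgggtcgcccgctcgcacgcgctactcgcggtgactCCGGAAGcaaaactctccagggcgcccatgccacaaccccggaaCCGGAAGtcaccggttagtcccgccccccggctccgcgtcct
Mrpl36: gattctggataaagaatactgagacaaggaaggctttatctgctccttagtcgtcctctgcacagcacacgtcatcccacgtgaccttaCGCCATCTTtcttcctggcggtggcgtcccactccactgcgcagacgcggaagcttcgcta
Mrpl41: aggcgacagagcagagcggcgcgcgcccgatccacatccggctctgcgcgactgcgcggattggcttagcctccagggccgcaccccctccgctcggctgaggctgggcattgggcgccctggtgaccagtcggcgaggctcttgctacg
Mrps33: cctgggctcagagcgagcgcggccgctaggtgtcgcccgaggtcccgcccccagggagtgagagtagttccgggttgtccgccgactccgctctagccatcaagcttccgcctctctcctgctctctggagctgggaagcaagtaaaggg
Mrpl46: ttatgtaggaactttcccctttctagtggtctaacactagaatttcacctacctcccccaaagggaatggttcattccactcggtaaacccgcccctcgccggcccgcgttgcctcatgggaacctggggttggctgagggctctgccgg
Mrps11: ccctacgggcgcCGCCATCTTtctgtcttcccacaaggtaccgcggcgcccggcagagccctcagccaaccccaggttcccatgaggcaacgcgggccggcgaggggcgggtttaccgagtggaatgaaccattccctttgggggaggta

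In these windows Mrpl43 carried 2 ETS matches, and Mrpl36 and Mrps11 each carried 1 YY1 match on the reverse strand. The windows of Mrpl46 and Mrps11 share 101 bases, read from opposite strands, so their promoters are largely 1 sequence. In the longer RefSeq entries, Mrps24 also held a YY1 match and Mrps33 an ETS match, while Mrpl41 and Mrpl46 held none of the 3 motifs. Mrps2, named below for its fall in the chase, is not shown and held none of them either.

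Levels are given as CPM, read counts scaled to a common library size after TMM scaling, which sets the typical gene of each library to the same level. In control cells at 0 h, levels per kilobase of exon spanned a wide range around a median of 11.97 CPM per kb. Mrps24 stood at 69.7 ± 0.320 (SD, n = 2) CPM per kb, though it shares exons with Urgcp on the same strand. Mrpl12, the protein of the mobile stalk that recruits translation factors, stood at 56.1 ± 0.840 CPM per kb. Mrpl45, which tethers the ribosome to the inner membrane near the exit of the nascent chain, stood at 45.0 ± 0.695 CPM per kb, and these 3 did not overlap with each other. At the low end were Mrpl23 at 2.14 ± 0.358 and Mrpl48 at 1.85 ± 0.0528 CPM per kb. Mrpl53 was at 0 and 0.153 CPM in the libraries of that group and at 0 in all 6 Mettl3 libraries. Its exons overlap Gm42688 on the same strand, and it was left out of both fits by the filter on low counts, so that 77 members were tested in each experiment.

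**Figure D1:**
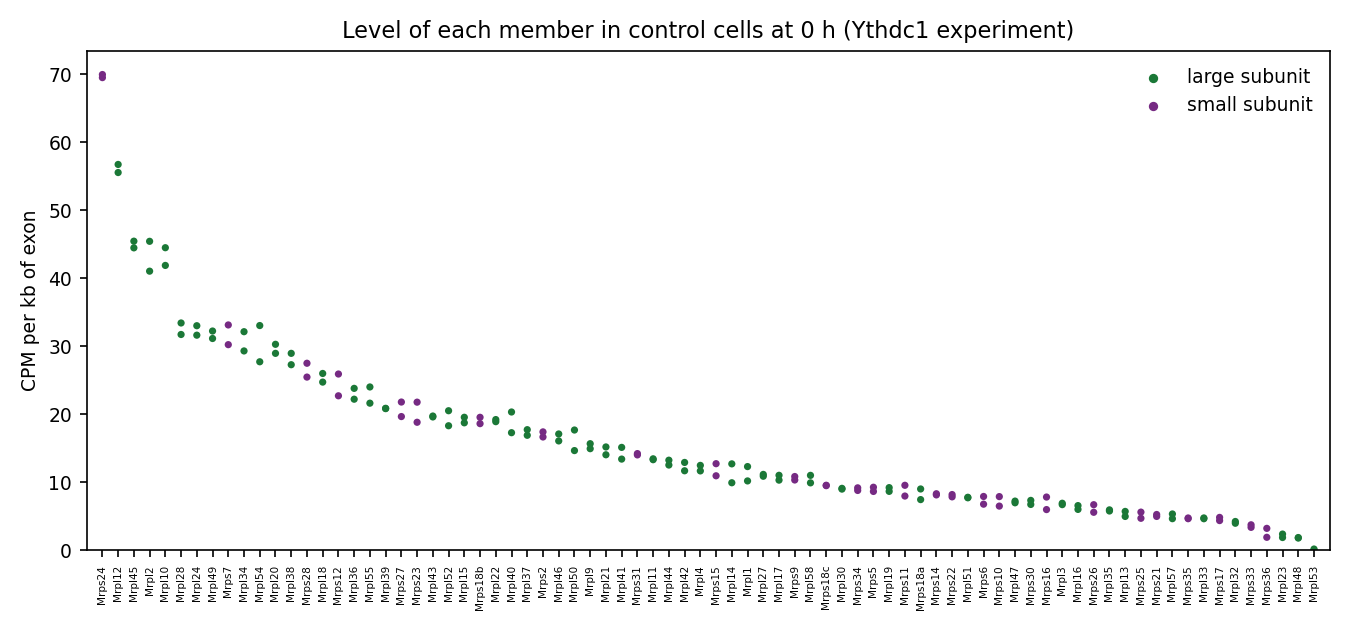
Level of each of the 78 members in control cells at 0 h of the Ythdc1 experiment, in CPM per kilobase of exon, with 1 point per library (2 libraries) and colour by subunit. Members are ordered by their mean, from Mrps24 at 69.7 CPM per kb down to Mrpl53 near 0, with subunits intermingled along the order.

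Together the members took 0.310% of gene reads in control cells at 0 h, and the share in libraries labelled cKO at 0 h was 0.267%. After actinomycin D the share was 0.359% at 3 h and 0.330% at 6 h in control, and 0.365% and 0.346% in the libraries labelled cKO. In the Mettl3 experiment it was 0.260% in control, 0.336% in KO1 and 0.267% in KO2. Mitochondrial mRNAs, which are made outside the nucleus and here serve at 0 h as a sign of RNA from outside it, took a share that moved differently. These mRNAs themselves fell during the chase, as given below, so their share at 3 and 6 h also reflects that fall. It was 1.01%, 0.595% and 0.227% over the chase in control and 1.25%, 0.729% and 0.853% in the libraries labelled cKO. In the Mettl3 control, KO1 and KO2 it was 0.610%, 1.03% and 1.22%. The part of such RNA in the results below was not tested.

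**Figure D2:**
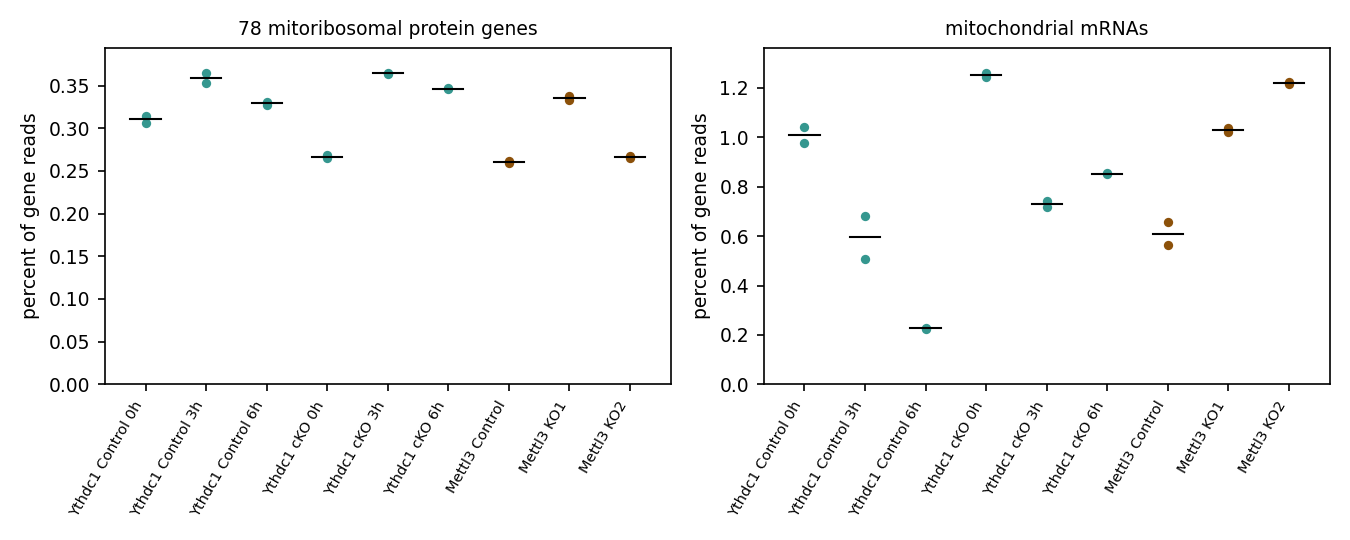
Percent of gene reads on the 78 members (left) and on mitochondrial mRNAs (right) in each library, with 1 point per library and a bar at the mean of each group of 2. The member share lies between 0.260% and 0.365% in group means, while the mitochondrial mRNA share ranges from 0.227% to 1.25%.

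In the nuclei of libraries labelled cKO at 0 h, before transcription was blocked, members were mostly lower where they differed. Of 77 members, 26 fell and 2 rose (edgeR quasi-likelihood test, adjusted p below 0.05 over all 17900 genes tested). In the same comparison 29.4% of all genes were called, 15.8% lower and 13.5% higher. The median member change was -0.16 on the log2 scale, against 0.01 over all genes. Summed feeder markers were at 40.4 to 42.0 CPM in the libraries labelled cKO and at 23.5 to 27.0 CPM in control. Stem cell markers were at 2455 to 2486 CPM and 2880 to 2921 CPM, while endoderm, mesoderm, neuroectoderm and trophoblast sums overlapped. The part of these markers was not tested. Of the large subunit, 21 of 50 members fell and 1 rose (median -0.23). Of the small subunit, 5 of 27 fell and 1 rose (median -0.11). Without the second control library or without the first library labelled cKO, 18 members in all were called in place of 28.

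Mrpl41 had the greatest fall. It was at 13.4 and 11.9 CPM in control and at 4.88 and 6.26 CPM in libraries labelled cKO, and the groups did not overlap. The log2 fold change was -1.18 ± 0.20 (adjusted p = 1.02e-05, edgeR). Mrps24 fell from 102.5 and 101.9 CPM to 71.3 and 69.7 CPM, by 0.54 on the log2 scale (SE 0.07, adjusted p = 1.43e-07, edgeR). Mrpl2, a core protein of the peptidyl transferase centre, was at 48.0 and 53.2 CPM in control and 33.5 and 37.5 CPM in libraries labelled cKO, a log2 fold change of -0.51 ± 0.09. The stalk protein Mrpl12 fell too, from 85.1 and 86.9 CPM to 57.5 and 75.1 CPM (-0.38 ± 0.09), as did the membrane tether Mrpl45 (-0.40 ± 0.07). Each of these 5 genes was lower in both libraries labelled cKO than in both control libraries. All were called falls and separation was not counted over all genes, so it is no further support.

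Other called falls were those of Mrpl14 (-0.63 ± 0.19), a large-subunit protein at the face that meets the small subunit, and of Mrps15 (-0.52 ± 0.15). The call of Mrpl14 was lost without the second control library and without the first library labelled cKO. That of Mrps15 was lost without the first control library. The members that rose were Mrps25, from 31.0 and 37.0 CPM to 49.4 and 45.8 CPM (0.48 ± 0.09, adjusted p = 0.000137, edgeR), and Mrpl16. Mrpl16 went from 19.1 and 20.9 CPM to 26.5 and 24.5 CPM (0.35 ± 0.12), and its call was lost on leaving out any 1 of the 4 libraries, with library size alone, without the filter and with DESeq2.

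Members with unusual roles were given whatever their values. Mrpl58, a hydrolase that frees peptides from stalled ribosomes, fell by 0.27 on the log2 scale (SE 0.10), and Mrps27, an RNA-binding protein of the pentatricopeptide repeat family, by 0.32 (SE 0.09). Mrps12 of the decoding centre (0.11 ± 0.12), Mrps18a (-0.08 ± 0.12), Mrps30 (-0.04 ± 0.10), Mrpl44 with its RNase III-like fold (-0.25 ± 0.13) and Mrps34 (-0.15 ± 0.14) did not pass the test. Neither did Mrps36 (0.03 ± 0.31).

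Other genes of mitochondrial translation were counted list by list at 0 h. Of the 5 mitoribosomal proteins with other names, Aurkaip1 (-0.47 ± 0.09) and Gadd45gip1 (-0.41 ± 0.11) fell. None of the 14 mitochondrial translation factors tested was called by edgeR (2 had an unadjusted p below 0.05), and none by DESeq2. Of 27 genes for assembly of the ribosome or modification of its RNA, 6 fell and none rose, led by Grsf1, an RNA granule protein (-0.74 ± 0.07). Among 17 mitochondrial aminoacyl-tRNA synthetases, 3 rose, led by Mars2 (1.37 ± 0.08), and 2 fell. Of 20 genes for mitochondrial transcription and RNA maturation, 2 rose and 4 fell, and of 10 mitochondrial mRNAs, 2 rose. Cytosolic ribosomal protein genes went the way of the members, with 46 of 85 lower and 1 higher (median -0.20).

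Scaling to spike-in reads, in place of the typical gene, shifted the median of all genes in this comparison to -0.35. On that scale 68 of 77 members fell and none rose, with a median of -0.53. The share of all genes called on the spike-in scale is not given here or below. Counts of members on it therefore include the shift of all genes and are to be read beside that shift. Mrpl16 then had a log2 fold change of -0.024 and Mrps25 one of 0.11 that did not pass the test.

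**Figure D3:**
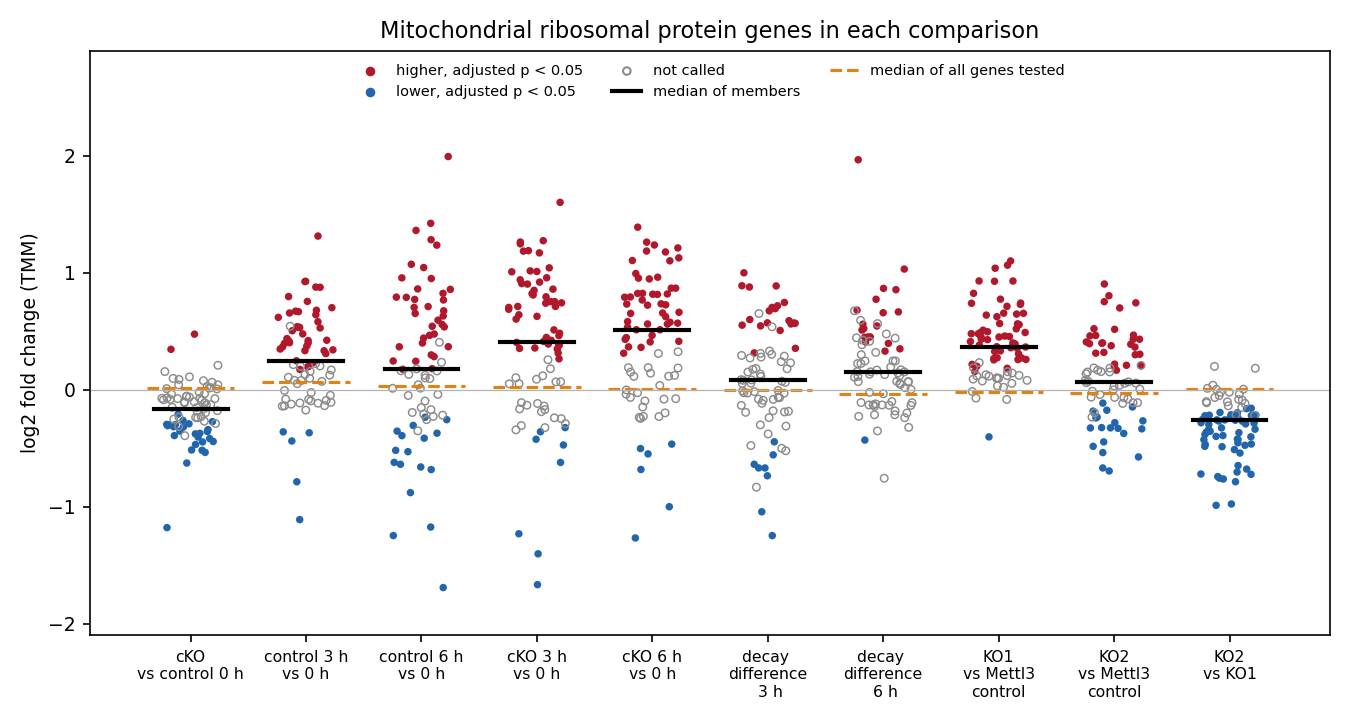
Log2 fold change of the 77 tested members in each of the 10 comparisons, with filled points for calls at an adjusted p below 0.05, a black bar at the members' median and a dashed line at the median of all genes tested. Members lie mostly below 0 in cKO against control at 0 h and in KO2 against KO1, and mostly above 0 in KO1 against control (medians -0.16, -0.26 and 0.37).

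The chase asked how nuclear transcripts fared once synthesis had been blocked. With TMM scaling, a rise or fall is relative to the typical gene and does not say whether the amount of the transcript itself went up or down. In control cells after 6 h, 37 members rose and 17 fell relative to the typical gene, while 64.8% of all genes were called (33.1% higher, 31.7% lower). The median member change was 0.18, against 0.03 over all genes and 0.14 over the other coding genes. At 3 h, 42 rose and 5 fell (median 0.25, against 0.07 over all genes, of which 29.3% were called higher and 27.1% lower, 56.5% in all). The 3 h and 6 h comparisons share the 0 h libraries.

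Behind the medians, members spread over more than 3 log2 units at 6 h. Mrps21, a small-subunit protein with a bacterial counterpart, was at 3.69 and 3.90 CPM at 0 h, 10.003 and 8.98 CPM at 3 h, and 15.5 and 14.9 CPM at 6 h. Its log2 fold change at 6 h was 2.00 ± 0.20 (adjusted p = 6.65e-11, edgeR), the greatest rise of the 77. Mrpl28 went from 43.8 and 46.1 CPM at 0 h to 108.3 and 123.1 CPM at 6 h (1.36 ± 0.08). Mrps28 (1.42 ± 0.11), Mrpl52 (1.28 ± 0.12) and Mrpl34 (1.24 ± 0.11) rose by similar amounts, and none of the 5 overlapped between 0 and 6 h. The 5 were picked as called rises, so this separation is no further support.

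At the other end, Mrps2, a conserved small-subunit protein, was at 50.8 and 48.6 CPM at 0 h, 23.8 and 22.2 CPM at 3 h, and 16.6 and 14.3 CPM at 6 h. It fell by 1.69 on the log2 scale at 6 h (SE 0.12, adjusted p = 8.79e-15, edgeR). Mrps35 went from 41.1 and 40.2 CPM to 19.99 and 14.6 CPM (-1.25 ± 0.12). Mrps33 went from 5.64 and 6.26 CPM to 2.26 and 2.97 CPM (-1.17 ± 0.26), by way of 6.10 and 5.25 CPM at 3 h. Mrpl32 (-0.88 ± 0.16) and Mrpl1 (-0.68 ± 0.10) fell as well. Of these 5 members 3 encode small-subunit proteins. Over the subunits, 25 of 50 large-subunit members rose and 8 fell, against 12 and 9 of 27 in the small subunit.

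Set against spike-in RNA, which was added from outside the cells, most members had lower values after the chase. How the amount of spike-in RNA was set is not described here. A change per spike-in read therefore need not equal the RNA lost or kept. The typical gene moved by -0.88 on the log2 scale at 6 h, and 57 members fell and 5 rose (median -0.74). The 5 members named for their rise still had higher values on this scale, from 0.32 for Mrpl34 to 1.076 for Mrps21, and passed the test. The level per spike-in read after 6 h had a median of 60.1% of the 0 h level over 77 members, from 16.5% for Mrps2 to 212% for Mrps21. It was below 50% for 26 members and above 100% for 9. At 3 h the median was 82.4%, and 38 members fell and 7 rose on this scale (median log2 -0.28, all genes -0.46). With library size alone as the scale, 27 members rose and 26 fell at 6 h (median -0.015).

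In the libraries labelled cKO, too, more members rose than fell relative to the typical gene. After 6 h, 47 members rose and 6 fell (median 0.51, all genes 0.01, with 60.9% of all genes called, 29.6% higher and 31.3% lower). After 3 h, 47 rose and 8 fell (median 0.41, all genes 0.03, with 59.4% called, 29.6% higher and 29.8% lower). Mrps2 fell by 1.27 at 6 h (SE 0.13), from 42.9 and 44.8 CPM to 22.4 and 16.2 CPM, and Mrps35 by 1.00 (SE 0.12). Mrpl34 (1.39 ± 0.12), Mrpl28 (1.26 ± 0.09), Mrps21 (1.24 ± 0.22), Mrpl14 (1.21 ± 0.18) and Mrpl10 (1.19 ± 0.07) rose most. As in control, the 3 h and 6 h comparisons share the 0 h libraries, while the control and cKO chases share no library. At 6 h, 32 members rose in both chases and 6 fell in both. The 32 were 86.5% of the 37 that rose in control and 68.1% of the 47 that rose in libraries labelled cKO. Of all genes, 33.1% and 29.6% were called higher in these chases. How many of them rose in both was not counted, so the overlap does not set the members apart. Mrps33 and Mrps17 fell in control and rose in libraries labelled cKO.

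Per spike-in read, 53 members fell and 3 rose in libraries labelled cKO at 6 h (median -0.46, all genes -0.96). The level per spike-in read was a median of 71.0% of the 0 h level, from 22.6% to 135%. Of the named rises, Mrpl34 (0.42), Mrpl28 (0.29) and Mrpl10 (0.22) passed the test on that scale, while Mrps21 had a value of 0.27 and Mrpl14 one of 0.24 that did not. The libraries labelled cKO at 3 h stood apart. Spike-in reads were 0.0275% of gene reads there, against 0.0987% at 0 h and 0.187% at 6 h, so the median of all genes was at 1.86 and that of the members at 2.24 on the spike-in scale. Under that scale 76 of 77 members rose at 3 h, and Mrps2, Mrps35, Mrps18b, Mrps10 and Mrps18a, which fell relative to the typical gene, had positive values.

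**Figure D4:**
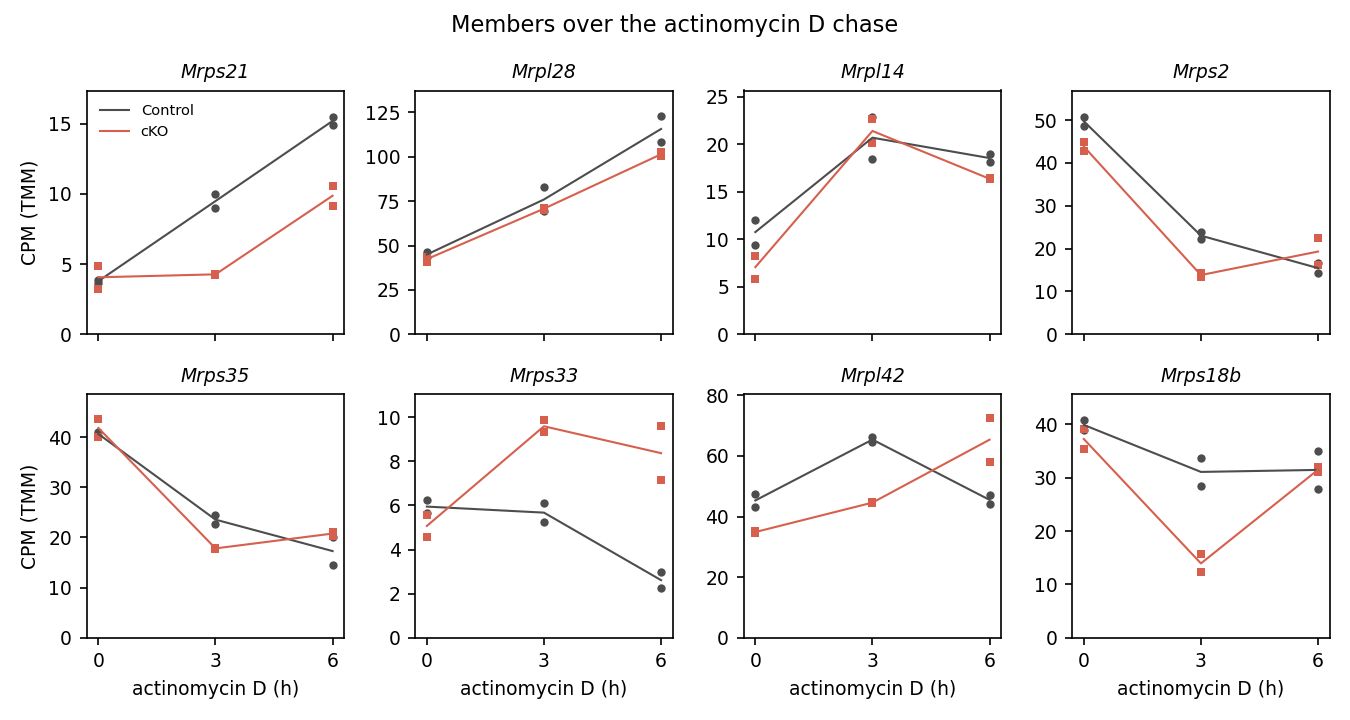
CPM after TMM scaling of 8 members at 0, 3 and 6 h of actinomycin D in control (grey circles) and in libraries labelled cKO (red squares), with 1 point per library and lines through the means of 2. Mrps21, Mrpl28 and Mrpl14 end above their 0 h level and Mrps2 and Mrps35 below it in both, while Mrps33 ends at 2.26 and 2.97 CPM in control and at 7.13 and 9.61 CPM in libraries labelled cKO.

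Whether the chase differed between genotypes was tested as an interaction, the change in libraries labelled cKO minus that in control. At 6 h, 19 members had a higher and 1 a lower change in libraries labelled cKO, and 19.1% of all genes were called (9.77% higher, 9.35% lower). The median difference was 0.16 over members and -0.03 over all genes. The large subunit had 12 of 50 higher and none lower, the small subunit 7 of 27 higher and 1 lower. Without the second library labelled cKO at 6 h, 13 members were called in place of 20.

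Mrps33 differed most. It went from 4.56 and 5.59 CPM at 0 h to 7.13 and 9.61 CPM at 6 h in libraries labelled cKO, while it fell in control, a difference of 1.97 ± 0.34 on the log2 scale (adjusted p = 4.54e-05, edgeR). Mrps17, a small-subunit protein with a bacterial counterpart, went from 31.4 and 28.4 CPM to 24.9 and 23.5 CPM in control and from 31.3 and 31.1 CPM to 46.3 and 45.9 CPM in libraries labelled cKO (difference 0.87 ± 0.15). Mrpl42 was at 47.6 and 43.1 CPM at 0 h and 44.1 and 47.0 CPM at 6 h in control, against 35.3 and 34.5 and then 72.6 and 58.2 CPM (difference 0.86 ± 0.14). Its groups at 0 h did not overlap either.

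Mrps18c, a small-subunit protein and 1 of 3 paralogs of the same family, had a difference of 1.03 ± 0.24, and Mrpl36 one of 0.77 ± 0.17. Mrps28 was the only member with a lower change in libraries labelled cKO (-0.43 ± 0.16, adjusted p = 0.0490, edgeR). Its call was lost on leaving out any 1 of 7 of the 8 libraries compared, all but the second control library at 6 h. It was also lost with DESeq2 size factors, library size alone, no filter and the DESeq2 test. Spike-in scaling left 14 members higher and 1 lower at this time, and the median was 0.10 beside -0.09 for all genes. Mrps33 then differed by 1.91 and Mrps17 by 0.81.

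The interaction at 3 h gave 20 members with a higher and 8 with a lower change in libraries labelled cKO. Of all genes 19.4% were called, 11.0% higher and 8.39% lower, and the median difference was 0.08 over members and 0.00 over all genes. Mrps24 was at 133.9 and 131.0 CPM at 3 h in control and at 175.2 and 163.7 CPM in libraries labelled cKO, from a lower start, a difference of 0.89 ± 0.09. Mrpl46 (0.89 ± 0.16), Mrpl9 (0.88 ± 0.12) and Mrpl11 (0.75 ± 0.12) were also higher. Mrps11, named after its value was seen because it starts head to head with Mrpl46, had a difference of -0.08 ± 0.18 that did not pass the test. Mrps33 differed by 1.00 ± 0.30, a call lost without the second control library at 0 h or 3 h, the first library labelled cKO at 0 h or the second at 3 h.

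Those with a lower change at 3 h included Mrps21, at 4.32 and 4.23 CPM in libraries labelled cKO against 10.003 and 8.98 CPM in control (difference -1.25 ± 0.32). Mrps18b, another paralog of the family of Mrps18c, was at 12.3 and 15.6 CPM against 28.4 and 33.8 CPM (-1.04 ± 0.17). Mrpl4 (-0.74 ± 0.15), Mrpl55 (-0.67 ± 0.18) and Mrpl35 (-0.67 ± 0.17) followed. The call of Mrps21 was lost without the first and that of Mrpl55 without the second library labelled cKO at 0 h. Under spike-in scaling, with the low spike-in share of the 3 h libraries labelled cKO, all 77 members had a higher change, with a median of 2.44 against 2.36 over all genes.

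Exonic length varied with the chase across members. Across the 77 members tested, log2 exonic length and the log2 change at 6 h had a Pearson r of -0.45 and a Spearman rho of -0.42 in control, and -0.58 and -0.60 in libraries labelled cKO. Across the 14070 other coding genes the values were -0.08 and -0.14, and -0.18 and -0.25. For gene length, r over the members was -0.12 in control and -0.17 in libraries labelled cKO. For the number of exons it was -0.07 and -0.11. Across the other coding genes r was 0.01 and -0.05 for gene length and 0.23 and 0.15 for the number of exons. These correlations are across genes measured in the same libraries, and genes are not independent replicates. For the interaction at 6 h, r of exonic length over the members was -0.06.

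Of the other lists, mitochondrial mRNAs fell through the chase, with 10 of 10 lower at 6 h in control (median -2.98). Their interaction at 6 h was higher in libraries labelled cKO for 5 of 10, with none lower. Cytosolic ribosomal protein genes rose relative to the typical gene, 73 of 85 at 6 h in control with 6 lower (median 1.01), which was a greater median than that of the members (0.18). Their interaction at 6 h was split, with 28 higher and 10 lower (median 0.06). Among the 14 translation factors 4 rose and 5 fell at 6 h in control, and among the 27 assembly genes 8 rose and 13 fell (median -0.39). Of the synthetases 8 of 17 rose and 5 fell, and of the transcription and RNA maturation genes 7 of 20 rose and 11 fell. Of the mitoribosomal proteins with other names, Dap3, a GTP-binding small-subunit protein, rose (0.89 ± 0.07) and Ptcd3 fell (-0.92 ± 0.06).

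Most members were higher in the Mettl3 knockout line KO1 than in its control. Of 77 members, 55 rose and 1 fell (edgeR, adjusted p below 0.05 over 21802 genes), while 46.1% of all genes were called, 23.9% higher and 22.2% lower. The median member change was 0.37, against -0.01 over all genes and 0.03 over other coding genes. Large-subunit members rose in 38 of 50 cases (median 0.40) and small-subunit members in 17 of 27 (median 0.27). Of members with a bacterial counterpart 33 of 45 rose, and of those classed as mitochondrial only 22 of 32. Summed stem cell markers were at 3908 to 3914 CPM in KO1 and 2812 to 2854 CPM in control. The 4 mesoderm markers were at 28.6 to 28.7 and 11.6 to 13.4 CPM, with none at 0 in either group. Lower in KO1 were endoderm (3.69 to 3.94 against 7.21 to 8.30 CPM) and trophoblast markers (4.73 to 5.05 against 9.12 to 9.96 CPM). Neuroectoderm markers were lower too (49.9 to 50.9 against 56.1 to 56.2 CPM), while feeder markers overlapped. The part of these markers in the result was not tested.

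Mrpl43 had the greatest rise in KO1. It was at 24.4 and 22.2 CPM in control and at 51.7 and 48.0 CPM in KO1, a log2 fold change of 1.10 ± 0.07 (adjusted p = 6.85e-23, edgeR). Its exons overlap those of Twnk, the mitochondrial DNA helicase gene, on the opposite strand. Mrps24, whose exons overlap those of Urgcp on the same strand, went from 61.1 and 51.4 CPM to 119.0 and 115.7 CPM (1.07 ± 0.05). Mrpl36, whose exons overlap those of Ndufs6, went from 12.1 and 10.9 CPM to 23.7 and 23.7 CPM (1.04 ± 0.10). Mrpl20, a large-subunit protein with no exon overlap listed, went from 35.5 and 37.0 CPM to 68.7 and 69.5 CPM (0.93 ± 0.06). Mrps34, whose exons overlap those of Nme3 on the same strand, rose by 0.93 ± 0.21 from a low control level (1.36 CPM per kb). For each of these genes both KO1 libraries lay above both control libraries. They were picked as called rises, so this separation is no further support. Among the 45 tested members without exon overlap, 33 rose and 1 fell.

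The only member that fell in KO1 was Mrps31, from 50.7 and 56.1 CPM to 40.7 and 40.1 CPM (-0.40 ± 0.07, adjusted p = 2.30e-07, edgeR). It lies on chromosome 8, where the median change of 807 other coding genes in KO1 was -0.51. Mrpl34, the other member there, had a value of 0.12 that did not pass the test. Of the members with unusual roles, Mrpl12 (0.65 ± 0.07), Mrps12 (0.64 ± 0.08), Mrpl41 (0.73 ± 0.13), Mrps27 (0.56 ± 0.08), Mrps30 (0.56 ± 0.07), Mrpl58 (0.51 ± 0.09) and Mrpl44 (0.46 ± 0.10) rose. Mrps18a (0.12 ± 0.07) and Mrps36 (-0.01 ± 0.12) did not pass the test.

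In KO2, against the same control libraries, 28 members rose and 20 fell, with 50.8% of all genes called (24.4% higher, 26.4% lower) and a median of 0.07 (all genes -0.03). Mrps24 was at 103.5 and 106.6 CPM in KO2 (0.91 ± 0.05, adjusted p = 1.23e-24, edgeR), and Mrpl17 at 107.8 and 107.0 CPM against 60.2 and 62.7 CPM in control (0.80 ± 0.05). Mrpl55 (0.75 ± 0.09), Mrpl36 (0.74 ± 0.10) and Mrpl43 (0.70 ± 0.08) rose next most. Mrps31 fell by 0.69 (SE 0.07), Mrpl19 by 0.67 (SE 0.10), Mrps16 by 0.57 (SE 0.11), Mrpl35 by 0.54 (SE 0.09) and Mrpl42 by 0.48 (SE 0.06). Mrpl19 was at 15.0 and 17.0 CPM in KO2 against 22.7 and 28.0 CPM in control.

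Members were also set out by chromosome, after the values had been seen. On chromosome 6, all 6 that were tested (Mrpl19, Mrpl35, Mrpl51, Mrps25, Mrps33 and Mrps35) fell in KO2, with a median of -0.39. The 719 other coding genes tested on that chromosome had a median of -0.42. In KO1 5 of the 6 rose, and their median was 0.41, beside -0.01 for the other coding genes of the chromosome. Mrps31 on chromosome 8 stood beside other coding genes with a median of -0.44 in KO2. Off chromosome 6, 28 members rose and 14 fell in KO2 (median 0.14). The part of the chromosome-wide shift in the values of single members was not tested.

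The direct test of KO2 against KO1 found 56 members lower and none higher, with 46.1% of all genes called, 24.5% lower and 21.6% higher. The median member difference was -0.26, against 0.00 over all genes. Outside chromosome 6, 50 of 71 members were lower and none higher (median -0.25). Mrpl35 was at 31.7 and 33.0 CPM in KO1 and at 16.9 and 15.6 CPM in KO2 (-0.99 ± 0.09, adjusted p = 1.57e-16, edgeR), and Mrpl19 differed by -0.98 ± 0.09. Mrpl18 (-0.79 ± 0.06), Mrps16 (-0.76 ± 0.11) and Mrpl52 (-0.76 ± 0.06), which are not on chromosome 6, were also lower. The other coding genes of chromosome 14, which holds Mrps16 and Mrpl52, had a median of -0.30 in the same comparison, and those of chromosome 17, which holds Mrpl18, one of -0.24. KO2 differed from KO1 in its summed feeder markers too (578.6 to 586.2 against 238.6 to 248.5 CPM). Stem cell markers were lower in KO2 (2605 to 2639 against 3908 to 3914 CPM), as were mesoderm, neuroectoderm and endoderm markers. Trophoblast markers were higher (14.3 to 15.1 against 4.73 to 5.05 CPM). The part of these markers in the difference between the lines was not tested.

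On the spike-in scale the median of all genes stood at 0.17 in KO1 and 0.53 in KO2. There 70 members rose and 1 fell in KO1 (median 0.55), and 70 rose and none fell in KO2 (median 0.63). The lines then differed by 0.38 over all genes, and 22 members were higher and 11 lower in KO2 than in KO1 (median 0.12). The median of members in KO2 against KO1 thus lay below that of all genes on both scales, and the sign of the difference depended on the scale.

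**Figure D5:**
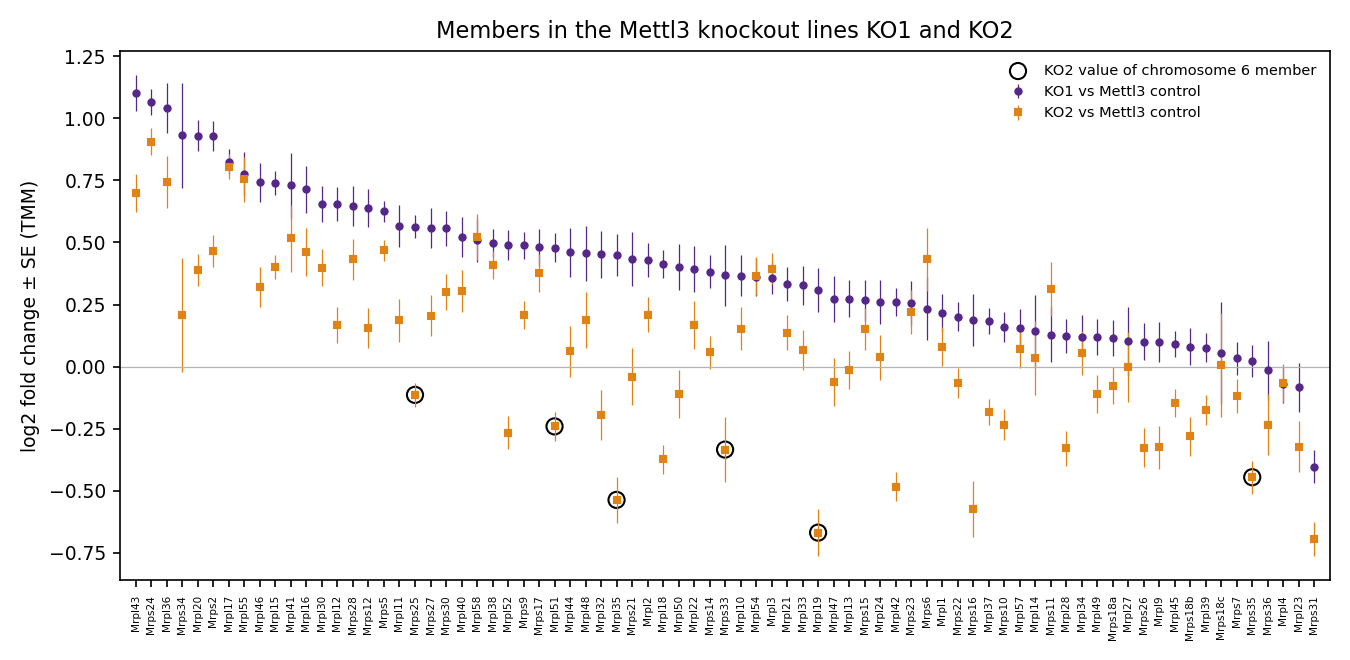
Log2 fold change with its standard error for the 77 tested members in KO1 (purple circles) and KO2 (orange squares) against the same Mettl3 control libraries, ordered by the KO1 value, with black circles around KO2 values of the 6 members on chromosome 6. KO1 values run from 1.10 for Mrpl43 to -0.40 for Mrps31, and all 6 chromosome 6 members lie below 0 in KO2.

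Among the genes that work with the mitochondrial ribosome, Grsf1 was high in both lines against the shared control, at 1.42 ± 0.04 in KO1 and 1.65 ± 0.04 in KO2. In KO1 6 of 14 translation factors rose and none fell, among them Tufm, the mitochondrial elongation factor Tu (0.51 ± 0.05). In KO2 4 rose and 4 fell. Of the 27 assembly genes, 11 rose and 2 fell in KO1, and 6 rose and 6 fell in KO2. The synthetases gave 7 higher and 4 lower of 17 in KO1, and 8 and 5 in KO2. The transcription and RNA maturation genes gave 12 higher and 2 lower of 19 in KO1, and 6 and 4 in KO2, with Pnpt1 at 0.65 ± 0.04 and 0.94 ± 0.04. Mitochondrial mRNAs were higher for 8 of 12 in KO1 (median 0.54) and for 12 of 12 in KO2 (median 1.22). Cytosolic ribosomal protein genes gave 62 higher and 9 lower of 85 in KO1 (median 0.23), and 34 and 31 in KO2 (median -0.01). Of the mitoribosomal proteins with other names 3 of 5 rose in KO1, and 4 of 5 fell in KO2, with Ptcd3 at 0.33 ± 0.04 and -0.44 ± 0.04. That gene's product belongs to the small subunit.

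The changes of members with and without a promoter motif were set side by side, with no test. In KO1 the 40 tested members with an NRF1, ETS or YY1 match had a median of 0.36 and the 28 without one 0.39. In cKO against control at 0 h the medians were -0.23 and -0.18, and in the interaction at 6 h 0.16 and 0.18. In the chase of libraries labelled cKO at 6 h they were 0.54 and 0.32.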

How the data were processed

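Per the labels, nuclear RNA was depleted of ribosomal RNA after ERCC spike-in RNA was added, and libraries were made with a stranded total RNA kit. The deposited values are raw gene counts with no normalization. Per the submitters' processing notes, the tools were HTSeq, HISAT2 2.1.0, Trimmomatic 0.38 and CASAVA, and the build mm10. The strand setting and gene model release of HTSeq are not given there. Positions, symbols and exon overlaps came from GENCODE M21.

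The 12 Ythdc1 and 6 Mettl3 libraries were fitted separately with edgeR 4.0.16 (1 coefficient per group, TMM factors, default filter with a minimum count of 10, robust quasi-likelihood test). Benjamini-Hochberg adjustment ran over all genes of a fit, and an adjusted p below 0.05 was called. The biological coefficient of variation was 6.52% and 4.09%. Fold changes are log2 with their SE, and the scripts were tested on simulated counts. Alternatives were other scalings, no filter, DESeq2 1.42.0, a replicate block, each library left out, and subsets of members.

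The members, lists and tests were chosen with earlier results of these data known. Named members were up to 5 called rises and falls per comparison with a mean of at least 50 reads, the 3 highest and lowest levels, and 10 with unusual roles. Of each other list up to 3 called genes by p were eligible.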

Additional observations from a re-analysis of the deposited data

Results flagged for a closer look

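Each result here is a test of a difference between responses that passed its threshold. The chase differed between control and libraries labelled cKO for 28 of 77 members at 3 h and for 20 at 6 h. Of all genes, 19.4% and 19.1% were called. Both counts rest on the same 0 h libraries, which also gave the comparison of cKO with control at 0 h. Without the second library labelled cKO at 6 h, the count at 6 h was 13. At 3 h the differences (log2, cKO minus control) were 1.00 for Mrps33, 0.89 for Mrps24, 0.89 for Mrpl46, 0.88 for Mrpl9 and 0.75 for Mrpl11. They were -1.25 for Mrps21, -1.04 for Mrps18b, -0.74 for Mrpl4, -0.67 for Mrpl55 and -0.67 for Mrpl35. The 3 h libraries labelled cKO carry the low spike-in share given above. At 6 h the differences were 1.97 for Mrps33, 1.03 for Mrps18c, 0.87 for Mrps17, 0.86 for Mrpl42, 0.77 for Mrpl36 and -0.43 for Mrps28. As given above, the calls of Mrps33, Mrps21 and Mrpl55 at 3 h and of Mrps28 at 6 h depended on single libraries. All members named here with a lower change at 3 h had positive values under spike-in scaling.

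The Mettl3 lines differed from each other for 56 of 77 members, all lower in KO2, while 46.1% of all genes were called. With spike-in scaling 22 were higher and 11 lower. The log2 differences (KO2 minus KO1) were -0.99 for Mrpl35, -0.98 for Mrpl19, -0.79 for Mrpl18, -0.76 for Mrps16 and -0.76 for Mrpl52. Of these, Mrpl35 and Mrpl19 lie on chromosome 6.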

How the results depend on the processing

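Spike-in scaling moved the counts of called members to 68 in cKO against control at 0 h, 77 in the interaction at 3 h and 33 in KO2 against KO1. It reversed the members' median in control at 3 h (-0.28) and 6 h (-0.74), in libraries labelled cKO at 6 h (-0.46) and in KO2 against KO1 (0.12). Library size alone gave -0.015 in control at 6 h. Single members whose sign turned under spike-in scaling were Mrpl16 in cKO at 0 h (-0.024), then Mrps10 (1.21), Mrps18a (1.36), Mrps18b (0.43), Mrps2 (0.17) and Mrps35 (0.60) in libraries labelled cKO at 3 h. They were also Mrpl35 (1.69), Mrpl4 (1.63), Mrpl55 (1.69), Mrps18b (1.31) and Mrps21 (1.11) in the interaction at 3 h, and Mrpl35 (0.027) and Mrpl42 (0.081) in KO2. The cause was not tested.

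Leaving out each library gave 18 to 21 called members in cKO at 0 h, 40 to 43 and 43 to 51 in control at 3 and 6 h, and 52 to 54 and 47 to 55 in libraries labelled cKO. It gave 21 to 29 and 13 to 21 in the interactions at 3 and 6 h, 50 to 56 in KO1, 39 to 44 in KO2 and 45 to 46 in KO2 against KO1. A group left with 1 library is assumed to vary like the others. Same-numbered libraries did not deviate together (correlations -0.03 to 0.09), so the numbers were not taken as pairs. With the replicate block the counts were 28, 47, 54, 55, 54, 30, 21, 56, 48 and 56 in the same order of comparisons. With the other settings, among them DESeq2 and no filter, the counts stayed within 1.5 times the main ones, but the calls of Mrpl16 at 0 h and Mrps28 in the interaction at 6 h were lost with several of them. Limits are the 2 libraries per group, the few spike-in reads (3932 in 1 library) and the unknown strand setting.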
